A study of Mus musculus with 16 samples.

Results

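The mitochondrially encoded transcripts are the products of the 37 genes of the mouse mitochondrial genome, whose symbols all start with mt-. They were picked by that symbol in the GENCODE annotation and matched by gene identifier to the deposited table. All 37 were among its 51912 genes: 13 protein-coding, 2 ribosomal RNA (rRNA) and 22 transfer RNA (tRNA) genes. The libraries came from heart ventricles of mice with Lrrc10, which encodes a leucine-rich repeat protein of heart muscle cells (WT, C57BL/6J), and of mice lacking it in every cell of the body (KO, Lrrc10-/-, in a C57BL/6 background). Pups had a sham operation (SH) or a myocardial infarction (MI) on postnatal day 1, and the whole ventricles, above and below the ligation, were taken 7 days later. Genotype and operation gave 4 groups (SH and MI of each genotype) of 4 libraries, numbered 1 to 4 except for KO MI, numbered 1, 2, 3 and 7. Total RNA was depleted of rRNA before sequencing, and which rRNAs the depletion removes is not given in the sources used here.

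Mitochondrial DNA is a small circle that is copied and read inside the mitochondrion. Both of its strands are transcribed into long precursors, and the tRNAs that lie between most of the other genes are cut out to release rRNAs and mRNAs. The mRNAs encode core subunits of respiratory complexes I, III and IV and of the ATP synthase (complex V), the rRNAs build the mitochondrial ribosome, and all other parts of these complexes come from nuclear genes. Heart muscle, which runs on oxidative metabolism, is rich in these transcripts.

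The libraries held from 33783874 to 57470159 counts. Lrrc10 had 0 counts in all 8 KO libraries and from 1075 to 1850 in the WT libraries. Xist, the RNA that coats the inactive X chromosome of females, was at 919 CPM (counts scaled to library size) or more in 6 libraries, KO SH 1 and 2, WT MI 2 and 4, and KO MI 1 and 2, and at 23.4 CPM or less in the others, so that all 4 WT SH libraries were low although the groups were described as balanced for sex. The summed level of 10 cardiomyocyte markers was between 29840 and 43760 CPM. The labels do not say whether each library was a separate animal, so p-values measure the spread between these libraries.

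A stretch of chromosome 1 repeats 28.5% of the mitochondrial genome, and it bears on the counts of 5 of the mRNA genes. In the GRCm39 assembly, chr1:24650616-24655269 (minus strand) was 99.936% identical to positions 6390 to 11042 of the mitochondrial chromosome. The repeat differed from it by 2 substitutions, A6393T in mt-Co1 and T9461C in mt-Nd3 (the mitochondrial base first, with positions counted along the mitochondrial chromosome), and by 1 inserted base. It carries 7 annotated copies, and those of mt-Co2, mt-Atp6, mt-Co3 and mt-Nd4l held no substitution over all but 1 to 3 bases of the gene. Where the sequences are identical, reads of the mitochondrial gene and of its copy cannot be told apart. The end of mt-Tg with the start of mt-Nd3, and the same stretch of chromosome 1 with the start of Gm28438, the copy of mt-Nd3, are printed here to show how little separates them. The capital marks the 1 base that differs, which lies in mt-Nd3, and both come from the GRCm39 genome.

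End of mt-Tg and start of mt-Nd3, chrM:9436-9486, plus strand: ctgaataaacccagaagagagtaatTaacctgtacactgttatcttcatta
Chromosome 1 copy with the start of Gm28438, chr1:24652173-24652223, minus strand: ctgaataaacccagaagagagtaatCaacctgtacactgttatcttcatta

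Counts were divided unevenly between these genes and their copies. The mitochondrial gene took a median of 0.102% of the pair's counts for mt-Co2, 4.18% for mt-Atp6, 13.9% for mt-Co3, 19.9% for mt-Nd3 and 33.0% for mt-Nd4l. For mt-Co1 and mt-Nd4, which the repeat covers over 31.3% and 63.6% of their length, it was 100% to 3 digits. The counts of mt-Co2, which encodes a copper-binding subunit of complex IV, were 165, 0, 164 and 658 in WT SH. In KO SH mt-Co2 had 165, 0, 840 and 489 counts. It had 159, 329, 0 and 323 in WT MI, and 164, 328, 0 and 0 in KO MI. Its copy Gm28661 held from 107579 to 200146 counts. Every group thus had a library with no count of mt-Co2, while the counts of the pair were present in all 16.

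Summing each copy into its gene narrowed the spread within groups. The mean coefficient of variation over the 4 groups fell from 104% to 7.60% for mt-Co2, from 20.6% to 7.57% for mt-Atp6, from 22.1% to 7.63% for mt-Co3, from 17.5% to 11.4% for mt-Nd3 and from 23.0% to 10.2% for mt-Nd4l. The values of these 5 genes as deposited are therefore uncertain. Levels per length below have the copies summed in, as do other values where so stated, a choice made after seeing the data. All other shares, counts of genes, medians and fold changes below are as deposited, with these 5 genes unsummed. The copies together held from 1.72% to 2.19% of a library's counts.

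**Figure D1:**
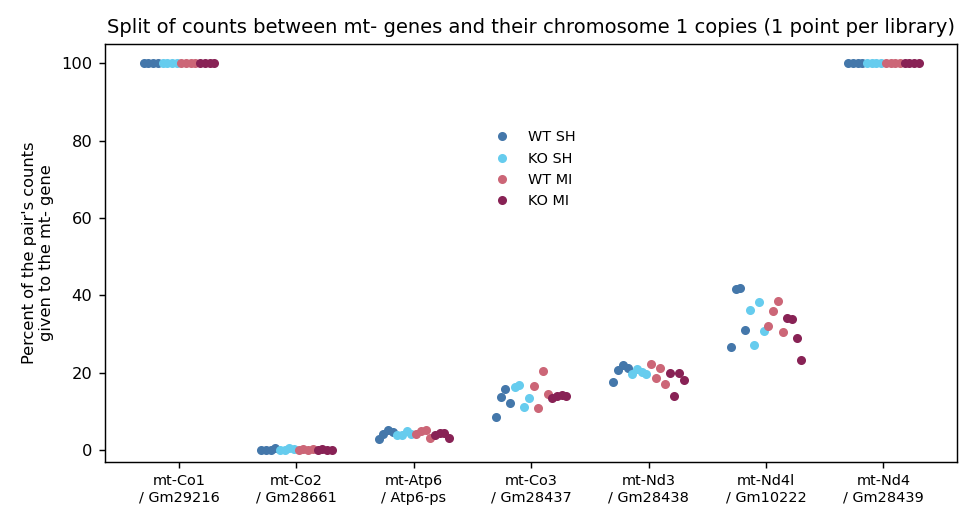
The points show, for each of the 16 libraries, the percent of the counts of an mt- gene and its chromosome 1 copy that went to the mt- gene (vertical axis), for the 7 pairs (horizontal axis). mt-Co1 and mt-Nd4 sit at 100%, mt-Co2 lies between 0 and 0.445%, and mt-Nd4l spreads from 23.4% to 41.8%.

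Mitochondrially encoded transcripts were a large part of each library, at 38.2% of its counts or more. Their share of counts was 45.5%, 45.8%, 46.7% and 45.6% in WT SH, 47.8%, 46.8%, 47.8% and 47.0% in KO SH, 44.1%, 43.5%, 43.9% and 44.2% in WT MI, and 45.0%, 38.2%, 42.2% and 41.4% in KO MI. The order of the group means was KO SH, WT SH, WT MI and KO MI, at 47.4% ± 0.489, 45.9% ± 0.556, 43.9% ± 0.299 and 41.7% ± 2.82 (SD, n = 4). KO MI varied most, and KO MI 2 was the lowest of all 16 libraries.

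The rRNAs held most of this share. mt- rRNA took 38.4% ± 0.363 of counts in WT SH, 39.8% ± 0.277 in KO SH, 36.8% ± 0.303 in WT MI and 34.6% ± 2.38 in KO MI, and mt- mRNA took 7.47% ± 0.225, 7.57% ± 0.212, 7.14% ± 0.384 and 7.06% ± 0.488 in the same order (SD, n = 4). With the copies summed in, the mRNA share in single libraries ran from 8.53% to 9.91%. Groups did not overlap in the rRNA share between KO SH and WT SH (+1.36 percentage points), WT MI and WT SH (-1.65) or KO MI and KO SH (-5.17), each with an exact permutation p = 0.0286 (two-sided), and no lower p is possible with 4 against 4 libraries. KO MI and WT MI overlapped, with a difference of -2.15 points (exact permutation p = 0.143). The mRNA share differed by -0.33 points between WT MI and WT SH and by -0.51 points between KO MI and KO SH, and the groups overlapped in both (exact permutation p = 0.200 and 0.114). None of the 48 tests of shares and ratios had an adjusted p under 0.1, the smallest being 0.171 (exact permutation tests with Benjamini-Hochberg adjustment). A share moves with every other gene of the library, so the levels below were scaled by the trimmed mean of M values (TMM), which centres the bulk of genes. On that scale the level of mt-Rnr2 differed by 0.02 (log2) between KO SH and WT SH. How far rRNA was depleted in each library was not measured. TMM does not correct for it, and it may bear on the shares and levels of both rRNAs.

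**Figure D2:**
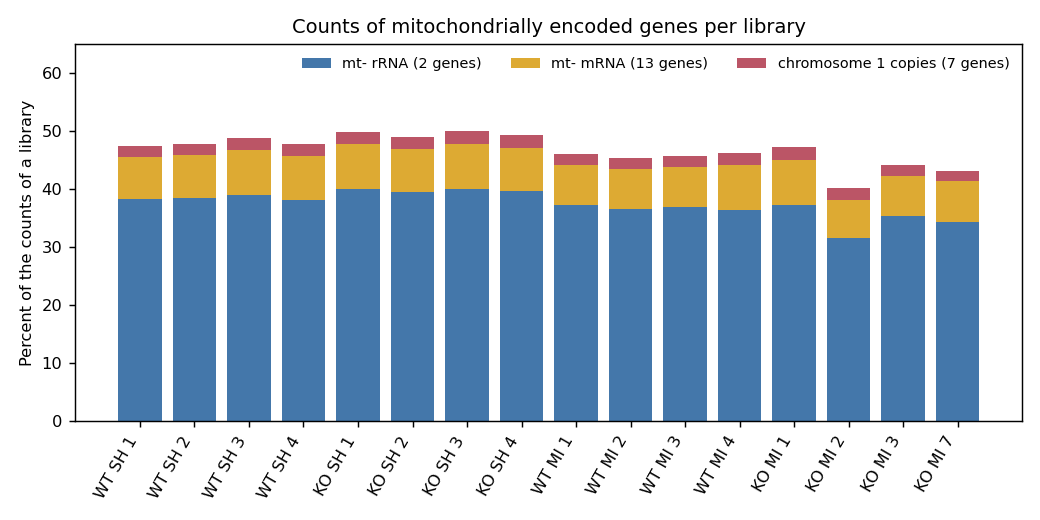
Stacked bars give the percent of the counts of each library (horizontal axis) held by the 2 mt- rRNA genes, the 13 mt- mRNA genes and the 7 chromosome 1 copies. KO SH libraries reach the top of the range, and KO MI 2 the lowest sum.

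Levels per length spanned a wide range along the one molecule. With the copies summed in, mt-Rnr2, the 16S rRNA of the large ribosomal subunit (chrM:1094-2675), had 223200 ± 24400 CPM per kilobase and mt-Rnr1, the 12S rRNA of the small subunit (chrM:70-1024), 23920 ± 4430 (mean ± SD over 16 libraries). Both lie side by side on one precursor, and mt-Rnr2 was from 7.93 to 11.2 times as high per kilobase as mt-Rnr1. As rRNA was depleted from these libraries, with targets not given, this ratio need not be that of the tissue. The highest mRNA was mt-Co1, the catalytic subunit of complex IV, at 21410 ± 2313 CPM per kilobase, which was below mt-Rnr1 in 11 of 16 libraries only. mt-Atp6, the proton channel subunit of complex V, followed at 14770 ± 1598 and was below mt-Co1 in all 16.

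The other mRNAs formed a closer order. Counts were divided by the full length of each gene, and whether this suits short genes such as mt-Atp8 (204 bases) was not tested. mt-Co3 of complex IV had 8388 ± 953 CPM per kilobase, mt-Nd1 7750 ± 804, mt-Nd4 6817 ± 645, mt-Atp8 of complex V 6106 ± 913, mt-Nd5 5845 ± 885 and mt-Co2 5105 ± 498. mt-Nd6 had 4110 ± 922, mt-Cytb, the cytochrome b of complex III, 3908 ± 530, mt-Nd3 3308 ± 530, mt-Nd2 3047 ± 295 and mt-Nd4l 2475 ± 388. The mt-Nd genes all encode membrane subunits of complex I. From mt-Co3 downwards the ranges of neighbours in this order overlapped, and mt-Atp8 exceeded mt-Nd5, as mt-Nd6 exceeded mt-Cytb, in only 9 of 16 libraries.

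mt-Atp8 and mt-Atp6 share one mRNA, and their reading frames overlap by 43 bases. The overlap is printed in capitals with 15 bases on either side (GRCm39), since reads that lie in it belong to both genes, while the deposited levels of the pair differed.

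mt-Atp8 and mt-Atp6, chrM:7912-7984, plus strand: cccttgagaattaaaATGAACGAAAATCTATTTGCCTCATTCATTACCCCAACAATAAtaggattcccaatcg

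**Figure D3:**
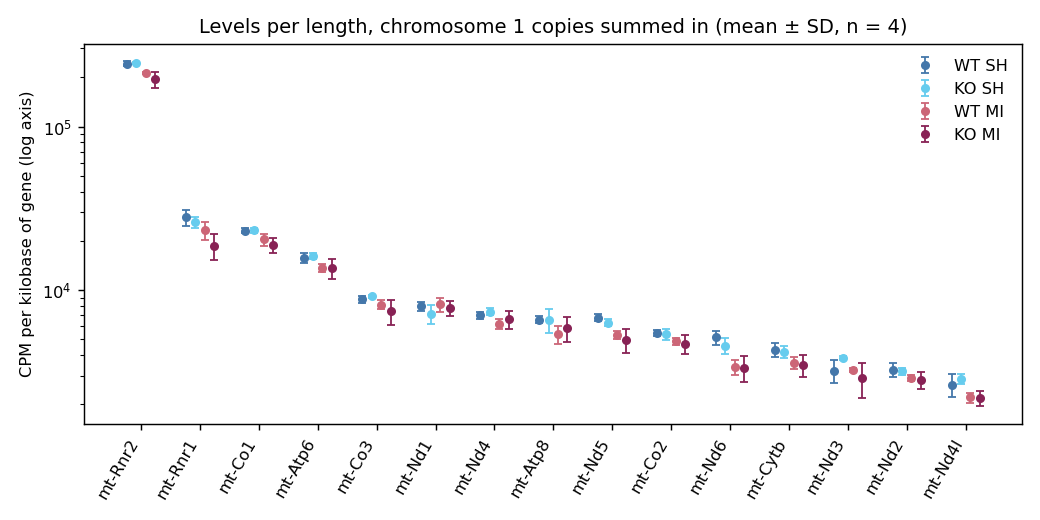
Points and bars give the mean and SD over 4 libraries of CPM per kilobase of gene (vertical log axis) for the 15 mt- rRNA and mRNA genes, ordered by their mean over 16 libraries, in each of the 4 groups. The level falls from 223200 for mt-Rnr2 to 2475 for mt-Nd4l, and the MI groups lie below the SH groups for most genes, mt-Nd1 being an exception.

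The tRNAs were nearly absent from these libraries. The 22 tRNA genes together held from 44 to 258 counts per library, 7 of them had 0 counts in all 16, and 4 passed the filter of at least 10 summed counts in every group. Only mt-Tg, the glycine tRNA, averaged at least 1 CPM, and it held 62.0% of all tRNA counts. Its counts were 130, 68, 64 and 49 in WT SH, 76, 37, 154 and 41 in KO SH, 38, 52, 42 and 22 in WT MI, and 52, 38, 47 and 63 in KO MI. Its sequence (GRCm39) ends where mt-Nd3 begins, inside the repeated stretch.

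mt-Tg, chrM:9391-9458, plus strand: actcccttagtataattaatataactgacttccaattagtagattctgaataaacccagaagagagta

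None of the 4 tRNA genes tested passed an adjusted p under 0.1 in any comparison with edgeR as fitted over all 16 libraries. mt-Tg came nearest, with infarction in WT mice, at 2.50, 1.82, 1.83 and 1.19 CPM in WT SH and 0.799, 1.12, 0.945 and 0.478 in WT MI. All WT MI libraries lay below all WT SH libraries, with a log2 fold change of -1.14 (SE 0.36, edgeR adjusted p = 0.103). It passed under 6 of 12 alternatives of filter, scaling, libraries or test, DESeq2 among them, over which the adjusted p ran from 0.031 to 0.360 (edgeR or DESeq2). Its counts of 22 to 154 per library leave this value close to the threshold.

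The infarction was compared with the sham operation in WT mice first. mt-Nd6 and mt-Nd5 fell, and no mt- gene rose. As all WT SH libraries were low in Xist while WT MI 2 and WT MI 4 were high, sex and infarction were unevenly mixed here. mt-Nd6 (chrM:13552-14070) is the only mRNA gene on the strand opposite to all the others. Its levels were 2846, 2764, 2799 and 2284 CPM in WT SH and 1534, 1806, 1680 and 1970 in WT MI. All WT MI libraries lay below all WT SH libraries, and the level fell by 34.6% (log2 fold change -0.61, SE 0.12, edgeR with Benjamini-Hochberg adjustment, adjusted p = 0.0089). Its share of the mt- mRNA counts went from 3.36% ± 0.273 to 2.51% ± 0.190 (SD, n = 4), again without overlap (two-sided exact permutation p = 0.0286, adjusted 0.171). The sources used here do not give whether strand was used in counting, without which reads of the opposite strand at mt-Nd6 cannot be told apart from its own.

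mt-Nd5 (chrM:11742-13565), whose end meets that of mt-Nd6 on the opposite strand, had 12310, 12640, 13010 and 11620 CPM in WT SH and 9759, 9992, 8920 and 10060 in WT MI. These groups did not overlap either, and the level fell by 21.9% (log2 fold change -0.36, SE 0.09, edgeR adjusted p = 0.038). Of the 19 mt- genes tested, these 2 had an adjusted p under 0.1, where 2.21% of all 20159 genes were lower and 3.11% higher by that rule. Only mt-Nd6 also passed a log2 fold change of 0.5, as 2.78% of all genes did in either direction. In all, 17 of the 19 were below 0, with a median log2 fold change of -0.27 against 0.00 for all genes tested. The rRNAs were at -0.19 (SE 0.08) for mt-Rnr2 and -0.27 (SE 0.12) for mt-Rnr1, with adjusted p = 0.208 and 0.253 by edgeR. mt-Nd5 did not pass without WT SH 3 or without WT MI 3 (edgeR adjusted p = 0.111 and 0.109), while mt-Nd6 passed whichever library was left out and also without the libraries high in Xist (log2 fold change -0.73, edgeR adjusted p = 0.012).

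In KO mice both rRNAs and several mRNAs were lower after infarction. Of the 19 tested, 7 fell and none rose at an adjusted p under 0.1, where 7.32% of all genes were lower and 10.2% higher. The 7 were both rRNAs, mt-Co1, mt-Cytb, mt-Nd3, mt-Nd5 and mt-Nd6. Only mt-Nd3 passed the fold limit too, as 7.42% of all genes did, and with its copy summed in it no longer reached that fold. The median over the 19 was -0.35 against -0.01 for all genes, and 18 were below 0.

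mt-Rnr2 had 392900, 382800, 392300 and 380600 CPM in KO SH and 351400, 269400, 311700 and 294100 in KO MI. The groups did not overlap, with KO MI 1 nearest to the sham range, and the level fell by 20.8% (log2 fold change -0.34, SE 0.08, edgeR adjusted p = 0.0097). mt-Rnr1 had 25620, 22160, 26150 and 25390 CPM in KO SH and 22450, 15850, 16820 and 15870 in KO MI. KO MI 1 lay within the sham range and the other three well below it, and the level fell by 28.5% (log2 fold change -0.48, SE 0.12, edgeR adjusted p = 0.013).

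Among the mRNAs, mt-Co1 had 37350, 36300, 35470 and 34560 CPM in KO SH and 33320, 25680, 28980 and 28600 in KO MI. It did not overlap and fell by 18.9% (log2 fold change -0.30, SE 0.08, edgeR adjusted p = 0.018). mt-Nd5 had 12110, 10830, 11810 and 11410 CPM in KO SH and 11150, 7799, 8269 and 8885 in KO MI, where KO MI 1 alone reached the sham range. It fell by 21.8% (log2 fold change -0.35, SE 0.09, edgeR adjusted p = 0.016).

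mt-Nd6 had 2679, 2017, 2425 and 2367 CPM in KO SH and 2046, 1427, 1519 and 1961 in KO MI. The groups overlapped through KO SH 2 and KO MI 1, and the level fell by 26.7% (log2 fold change -0.45, SE 0.12, edgeR adjusted p = 0.020). mt-Cytb had 5095, 4293, 5174 and 4674 CPM in KO SH and 4907, 3686, 3737 and 3663 in KO MI. It overlapped through KO MI 1 and fell by 16.9% (log2 fold change -0.27, SE 0.10, edgeR adjusted p = 0.095), a call lost when any 1 of 6 of the 8 libraries was left out.

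With the copies summed in, 10 mt- genes fell in KO mice. mt-Co3 was at -0.31, mt-Nd4l at -0.39, mt-Atp6 at -0.24 and mt-Nd3 at -0.41 on the log2 scale, with edgeR adjusted p = 0.042, 0.018, 0.073 and 0.061. Summed, mt-Nd3 had 1377, 1323, 1372 and 1293 CPM in KO SH and 1265, 1038, 1067 and 678 in KO MI, without overlap. mt-Nd2, mt-Nd4, mt-Co2 and mt-Atp8 lay between -0.16 and -0.19 and did not pass.

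mt-Nd1, the first mRNA gene after the rRNAs (chrM:2751-3707), was the one rRNA or mRNA gene with a fold change above 0 in both genotypes. It had 6740, 6110, 8109 and 6343 CPM in KO SH and 8390, 7097, 6580 and 7511 in KO MI, and 7819, 7175, 8166 and 7288 in WT SH and 7299, 7294, 7800 and 8949 in WT MI. Groups overlapped in both comparisons, with log2 fold changes of 0.12 (interval of 2 SE from -0.07 to 0.31) in KO and 0.04 (from -0.15 to 0.23) in WT. Without TMM scaling, which shifts the median of all genes by 0.14 in KO and 0.13 in WT, the 7 genes with an adjusted p under 0.1 in KO stayed below 0, from -0.42 for mt-Nd3 to -0.12 for mt-Cytb, which no longer passed (edgeR adjusted p = 0.314).

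The count of 7 at an adjusted p under 0.1 ranged from 5 to 11 when 1 library was left out, the 11 coming without KO MI 1. In fits of the compared groups alone 4 passed in KO and 6 in WT. There mt-Rnr2 did not pass in KO at the same log2 fold change of -0.34 (edgeR adjusted p = 0.118). Shares of all genes passing were counted in the main edgeR fit alone, so counts under other settings have no such share beside them. Without the libraries high in Xist 5 passed in KO, and mt-Co1 did not (-0.28, edgeR adjusted p = 0.118). Markers of other cells moved with this comparison, where 10.2% of all genes were higher and 7.32% lower at an adjusted p under 0.1. Of 8 macrophage markers, 7 were higher, with a summed level from 50.7 to 57.9 CPM in KO SH and from 65.6 to 158 in KO MI. All 7 erythroid markers were higher, with sums of 417 to 498 and 355 to 1146 CPM, and 4 of 8 fibroblast markers were higher, with sums of 2054 to 2258 and 2820 to 3161 CPM. Of 6 skeletal muscle markers tested 5 were higher, with sums of 306 to 349 and 404 to 740 CPM. Most of these sums came from Ckm and Acta1, at 260.5 and 410.2 CPM in KO MI 2, which had the 740. Myh8 and Myh3 were instead highest in KO MI 7, at 58.5 and 34.3 CPM, the KO MI library with the lowest sum. Of 5 atrial markers 2 were higher, with sums of 50.6 to 129 and 164 to 2431 CPM. The last was in KO MI 2, the library with the lowest mt- share, where Nppa alone held 2396 CPM. Myl7, Myl4, Sln and Stard10 were each higher in KO MI 3 than in KO MI 2. Cardiomyocyte markers split into 2 higher and 2 lower of 10, with sums of 31710 to 32610 and 29840 to 31980 CPM, and 3 of 7 endothelial markers were lower. Of 6 markers of smooth muscle and pericytes 2 were higher and 3 lower, and of 2 brown adipocyte markers tested 1 was lower. In WT mice 3 of 8 fibroblast and 2 of 8 macrophage markers were higher, beside 3.11% of all genes. Lower were 3 of 10 cardiomyocyte, 1 of 7 endothelial and 3 of 6 smooth muscle and pericyte markers, beside 2.21% of all genes. No erythroid, skeletal muscle, brown adipocyte or atrial marker passed there. No marker was at 0 in all libraries. Their part in the lower mt- levels was not tested, and in whole ventricles fewer cells of a type and less RNA per cell cannot be told apart.

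**Figure D4:**
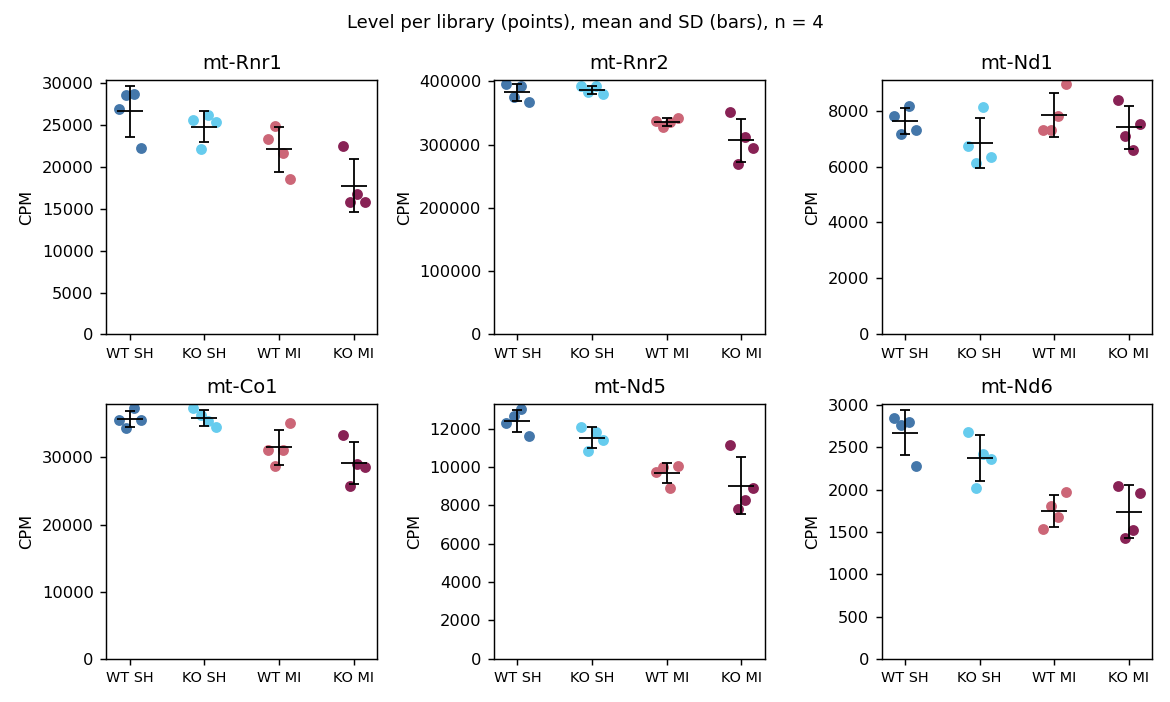
Points give the CPM of each library (vertical axes from 0) in the 4 groups for 6 mt- genes, with the mean and SD of 4 libraries as bars. mt-Nd6 and mt-Nd5 of WT MI lie below all WT SH libraries, KO MI 1 is the highest KO MI library in all 6, and mt-Nd1 overlaps throughout.

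The effect of the genotype was compared within each operation. Between KO SH and WT SH no mt- gene passed, where 5.11% of all genes were higher and 7.22% lower at an adjusted p under 0.1, and 5.01% also passed the fold limit. By edgeR 1 of the 19 had an unadjusted p under 0.05, and by DESeq2 none passed after adjustment. The median was 0.01. mt-Rnr2 differed by 0.02 on the log2 scale (2 SE interval from -0.14 to 0.17), mt-Rnr1 by -0.10 (from -0.33 to 0.13) and mt-Nd6 by -0.17 (from -0.41 to 0.06), with edgeR adjusted p = 0.928, 0.654 and 0.403. As all WT SH libraries were low in Xist, sex and genotype were unevenly mixed here. With high Xist as a covariate no mt- gene passed either.

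Between KO MI and WT MI no mt- gene passed, where 1.03% of all genes were higher and 2.04% lower, and 1.73% also passed the fold limit. By edgeR 1 had an unadjusted p under 0.05, and DESeq2 called none. mt-Rnr1 was at -0.32 (2 SE interval from -0.55 to -0.09, edgeR adjusted p = 0.218). Its levels were 23370, 24870, 21700 and 18590 CPM in WT MI, against those given above for KO MI, and the groups overlapped through KO MI 1. Without KO MI 1 it passed, at -0.45 (edgeR adjusted p = 0.023). mt-Rnr2 was at -0.13 (from -0.28 to 0.02, edgeR adjusted p = 0.535) and mt-Nd6 at -0.01 (from -0.24 to 0.23, edgeR adjusted p = 0.992).

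The response to infarction was not shown to differ between genotypes for any mt- gene. The difference of both log2 fold changes (KO minus WT) passed for none of the 19 by edgeR, where 0.0248% of all genes passed, and none had an unadjusted p under 0.05 as deposited. With its copy summed in, mt-Nd3 was at -0.42 (2 SE interval from -0.81 to -0.04, edgeR adjusted p = 0.343), the one mt- gene with an unadjusted p under 0.05. It was -0.15 for mt-Rnr2 (2 SE interval from -0.36 to 0.07), -0.22 for mt-Rnr1 (from -0.55 to 0.11) and 0.17 for mt-Nd6 (from -0.16 to 0.49). The larger number of genes with an adjusted p under 0.1 in KO mice does not show a larger fall.

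**Figure D5:**
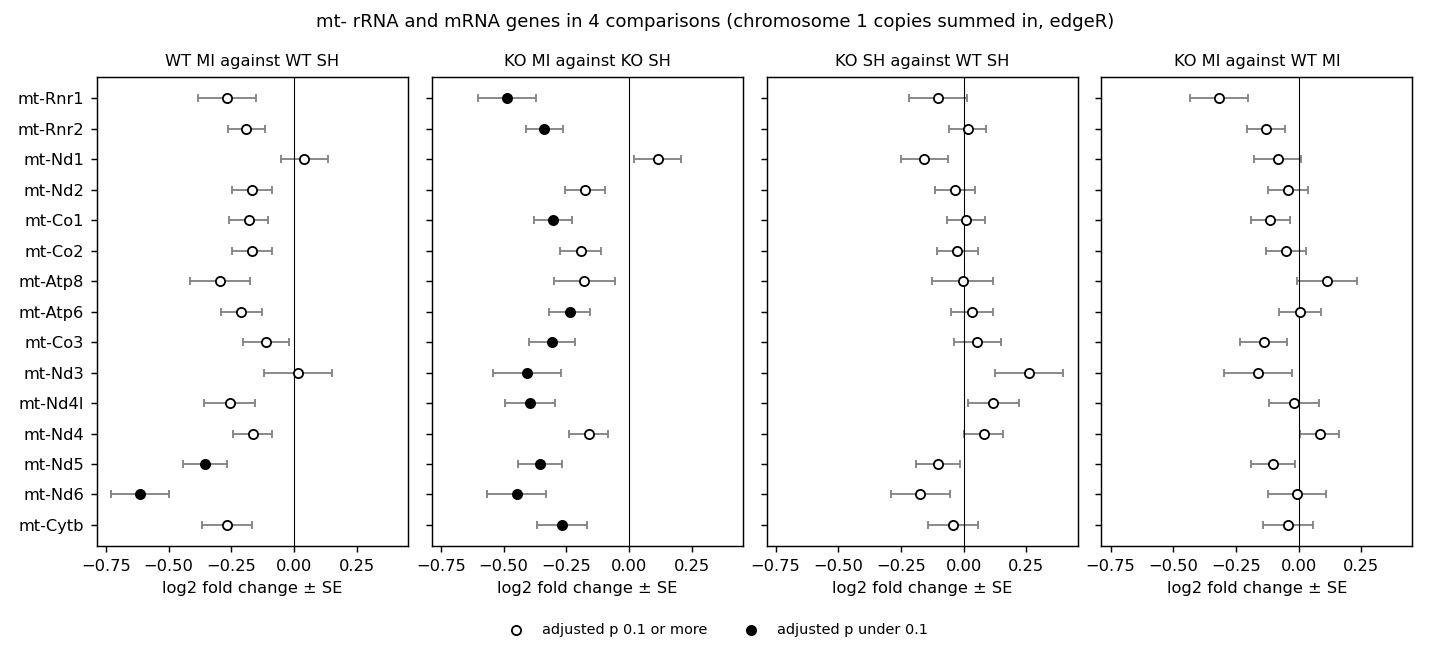
Each panel gives log2 fold changes with their SE (horizontal axis, copies summed in) of the 15 mt- rRNA and mRNA genes in order along the genome, filled where the edgeR adjusted p was under 0.1. The filled points are 2 in WT and 10 in KO mice for infarction against sham and none for genotype, all of them below 0.

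Within the mRNAs, the make-up by complex overlapped between groups in every comparison. With the copies summed in, the 7 complex I genes took 37.2% ± 0.719 of mt- mRNA counts in WT SH, 36.3% ± 1.05 in KO SH, 37.0% ± 0.928 in WT MI and 37.7% ± 1.02 in KO MI (SD, n = 4). The 3 complex IV genes took 45.9% ± 0.769, 46.7% ± 1.48, 46.6% ± 1.12 and 45.2% ± 0.948 in the same order, and the pair of complex V 11.9% ± 0.390, 12.3% ± 0.546, 11.7% ± 0.226 and 12.4% ± 0.651. Complex III, which is mt-Cytb alone, took from 4.67% to 4.90% in group means. As deposited, complex V held 2.16% to 2.35% in group means, mt-Atp6 having the small part of its pair given above. With the copies summed in, the log2 ratio of rRNA to mRNA was 2.04 in KO SH and 1.94 in KO MI, without overlap (difference -0.10, two-sided exact permutation p = 0.0286, adjusted 0.152), rRNA being lower in KO MI relative to mRNA. As deposited, these groups overlapped in this ratio (difference -0.10, two-sided exact permutation p = 0.057, adjusted 0.249).

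The nuclear genes that transcribe, process and translate mitochondrial RNA were compared as 4 lists of 88 genes, all tested. With infarction in KO mice 4 were higher and 1 lower at an adjusted p under 0.1, beside 10.2% and 7.32% of all genes, and the median log2 fold change was 0.01. The 18 genes of transcription and replication gave the 1 lower, and the 33 of RNA processing 3 higher. The 22 genes that make aminoacyl-tRNAs, most of them synthetases, gave 1 higher and the 15 translation factors none. With infarction in WT mice none were higher and 2 lower, beside 3.11% and 2.21% of all genes, of which Mrm3, a methyltransferase of the 16S rRNA, also passed the fold limit (log2 fold change -0.62, SE 0.16, edgeR adjusted p = 0.046). Between KO SH and WT SH 3 were higher and 12 lower, beside 5.11% and 7.22% of all genes, with 7 of the 12 in RNA processing. Mrm3 was at -0.82 (SE 0.17, edgeR adjusted p = 0.0064) and Ears2, the glutamyl-tRNA synthetase, at 0.51 (SE 0.09, edgeR adjusted p = 0.0029). Between KO MI and WT MI 2 were higher and none lower, beside 1.03% and 2.04% of all genes, and Ears2 was at 0.54 (SE 0.09, edgeR adjusted p = 0.0032). The mt- mRNAs themselves did not pass in either genotype comparison.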

How the data were processed

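The deposited table held RSEM expected counts per gene, whole numbers, made by the authors from stranded total RNA libraries. The published methods name Skewer, STAR and RSEM, while the submitters' processing notes name cutadapt 3.4, HISAT2 2.2.1, RSEM 1.1.17 and GRCm39. How reads with several matches were divided is not given in the sources used here. Names came from GENCODE M39 and matched 47772 of 51912 gene identifiers. The members and lists were chosen with earlier results of these data known. Genes with at least 10 summed counts in each group were fitted over 16 libraries with edgeR 4.0.16 (quasi-likelihood, TMM), 1 coefficient per group, and p-values were Benjamini-Hochberg adjusted over all genes. A gene was called at an adjusted p under 0.1 and a log2 fold change of at least 0.5, and the report also counts those at an adjusted p under 0.1 alone. CPM were scaled by TMM. Shares were tested by exact permutation (scipy 1.17.1). Matches of the mitochondrial genome elsewhere in GRCm39 came from blastn 2.17.0. The fit was tested on simulated data, where small changes were recovered only in part, so that changes of the size seen here can be missed. All mt- rRNA and mRNA genes and tRNAs averaging 1 CPM were named, with statistics for those that passed and for mt-Rnr1, mt-Rnr2 and mt-Nd6. DESeq2 1.42.0 and other filters, scalings and library sets were alternatives. Intervals cover 2 SE.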

Additional observations from a re-analysis of the deposited data

Results flagged for a closer look

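Of 112 groups of 4 libraries examined over 28 measures, 11 held a library whose gap to the nearest of the others was past Dixon's 95% limit, and chance flags about 1 in 20 groups. KO MI 1 stood above the other KO MI libraries for mt-Rnr1 (22450 CPM against 15850 to 16820), mt-Nd2 (3450 against 2683 to 2796) and mt-Cytb (4907 against 3663 to 3737). WT SH 4 stood below the other WT SH libraries for mt-Nd6 (2284 CPM against 2764 to 2846) and mt-Atp8 (1260 against 1371 to 1387). The tRNA share was lowest in WT MI 4 (9.68e-05% of counts) and highest in KO MI 7 (0.000293%) of their groups. The log2 ratio of mt-Rnr2 to mt-Rnr1 was 4.11 in KO SH 2, and that of rRNA to mRNA 2.37 in KO MI 3. Complex I took 44.8% of mt- mRNA counts in KO MI 3, below its group, and complex V 2.01% in KO MI 7, below its group.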

How the results depend on the processing

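Counts of mt- genes that fell with infarction depended on the processing. Shares of all genes passing were not counted in the alternative fits, here and below, so changes in these counts cannot be set beside them. By adjusted p and fold, the 1 called in WT mice became 2 without a filter, with filterByExpr, with at least 10 counts in every library, in a fit of those groups alone and with DESeq2, and the 1 called in KO mice became 0 at an adjusted p under 0.05, without TMM, in a robust fit, in a fit of those groups alone and with the copies summed in, and 2 without a filter and with DESeq2. By adjusted p alone, the counts were 2 in WT and 7 in KO, and in fits of the compared groups alone 6 and 4; DESeq2 gave 4 in WT. Leaving out 1 library gave 1 to 2 called in WT (1 to 3 by adjusted p alone), 0 to 4 in KO (5 to 11 by adjusted p alone) and, between KO MI and WT MI, 0 to 1 by adjusted p alone.

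Libraries with one replicate number did not deviate together (correlations from -0.06 to 0.11), which cannot decide whether the numbers pair libraries. With the replicate block, 2 mt- genes were called in WT and 3 in KO, and of the nuclear genes of mitochondrial gene expression 0 between KO MI and WT MI, 2 between KO MI and KO SH and 5 for the difference of responses.

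For those nuclear genes, with no minimum fold 15 were called between KO SH and WT SH, 2 between KO MI and WT MI, 2 with infarction in WT and 5 in KO. Without TMM 2 were called in KO, without the libraries high in Xist 0 in WT, and with DESeq2 2 in WT and 2 for the difference of responses. Leaving out 1 library gave 1 to 4 between KO SH and WT SH, 0 to 1 between KO MI and WT MI, 0 to 1 and 0 to 2 with infarction in WT and KO, and 0 to 5 for the difference of responses.

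Between KO MI and WT MI, mt-Nd6 changed direction to 0.048 without TMM and 0.12 without the libraries high in Xist, and ranged from -0.0961 to 0.0757 with 1 library left out. mt-Rnr2 between KO SH and WT SH ranged from -0.0008 to 0.0345. The rRNA to mRNA ratio in WT changed to -0.00012 with copies. Without the libraries high in Xist, KO MI minus KO SH was 0.31 for the mt-Rnr2 to mt-Rnr1 log2 ratio, and 0.34, -0.48, 0.44 and -0.31 points for complexes I, III, IV and V of mt- mRNA as deposited, and KO SH minus WT SH was 0.27 points for complex V. The causes of these changes were not tested.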
